A study of Mus musculus with 9 samples.

Results

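The transcripts described here encode nucleoporins, the proteins that build the nuclear pore, and the soluble receptors that carry cargo through it. They were taken by name: a probe set was included where the platform annotation gave it a single symbol made of Nup and a number, or of Kpna, Kpnb, Xpo, Ipo or Tnpo and a number. This gave 71 of 22626 probe sets, which stand for 36 of 12393 named genes: 16 nucleoporin genes with 29 probe sets and 20 receptor genes with 42. Another 2 probe sets carry several symbols, 1 of which has such a name, and were not used. Pore proteins with other names, such as Ranbp2, are given further down in lists of their own. Averaged over all arrays, 65 of the 71 probe sets were brighter than 31.2, the highest value of the 27 Bacillus control probe sets, and 6 were not.

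The RNA came from RAW 264.7, a line of mouse macrophages, and was hybridised to 9 Affymetrix arrays. The labels give 3 untreated arrays, 3 arrays of cells kept for 18 h with bacterial lipopolysaccharide (LPS) at 100 ng/ml, and 3 arrays of cells with constitutive overexpression of CstF-64. This protein, the product of Cstf2, is the RNA-binding subunit of a factor that helps to form the 3' ends of mRNAs. The sources used here do not give the vector, its promoter, the number of clones or a vector control, so an effect of CstF-64 and any other difference of that cell population cannot be told apart. All groups share the cell line, and the LPS and CstF-64 groups are set against one set of 3 untreated arrays. Nothing in the labels says that the replicates were separate cultures, so each p-value speaks of the spread among these samples only, and that spread may be technical. In bulk RNA, fewer cells with a transcript and less of that transcript per cell cannot be told apart.

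A nuclear pore is a ring-shaped channel through the nuclear envelope. Its scaffold consists of outer rings, built from the Y-shaped complex, and an inner ring; flexible repeat-bearing nucleoporins fill the central channel, filaments reach into the cytoplasm, a basket reaches into the nucleus, and membrane proteins anchor the structure. Importin alpha proteins (Kpna) read nuclear localisation signals and bind importin beta (Kpnb1), while other members of the importin beta family (Ipo, Tnpo) bind cargo directly and exportins (Xpo) carry cargo out. The small GTPase Ran gives the direction: its GTP form, made in the nucleus, releases import cargo and joins export complexes. In macrophages this machinery carries transcription factors such as NF-kappaB into the nucleus after a Toll-like receptor is engaged. Dividing cells also build new pores, and the Y complex associates with kinetochores in mitosis.

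The deposited values are intensities on a linear scale, which the arrays carry at a common level (mean after trimming 2% at each end, 150.05 to 150.06). Array medians ranged from 42.75 to 54.2. Those of LPS arrays 1 to 3 (49.3, 45.6 and 42.75) lay below those of all other arrays (51.1 to 54.2). LPS array 1 stood apart, with a mean correlation across probe sets of 0.966 to the other arrays of its group. CstF-64 array 1 came next at 0.975, close to the remaining arrays, which reached 0.977 to 0.985. Cstf2 itself, the check of the label, measured 358 ± 38.4 in the CstF-64 arrays and 378 ± 18.0 in the untreated arrays (SD, n = 3; probe set 1419645_at), a difference that did not pass (adjusted p = 0.9999, limma). A second probe set, 1419644_at, read 80.4 to 97.1 in the CstF-64 arrays and 100.2 to 134.1 untreated (-0.36, adjusted p = 0.763). The group is therefore called CstF-64 after its label only. Of 8 macrophage marker genes 0 were at background in every array, with summed intensities of 13330 to 20800. Of 6 lymphocyte, 5 granulocyte and mast cell, 6 fibroblast and endothelial and 4 epithelial marker genes, 12 in all were at background in every array, and their list sums lay between 31.7 and 227.6. Changes below are differences of group means of log2(intensity + 13) from limma, fitted over all 9 arrays, and "rose", "fell" and "called" mean a two-sided Benjamini-Hochberg adjusted p under 0.05 over all 22626 probe sets. This scale understates changes of dim probe sets, and intensities of different probe sets are not compared.

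Because many of these genes moved together after LPS, the sequence upstream of their starts was examined. RefSeq promoter windows of the mouse assembly GRCm38.p6, reaching from 250 bases before to 50 bases after the start, were found for 29 of the 36 genes. The 6 shown were chosen after their values were seen: Nup107, Nup210, Nup155 and Kpna2 fell after LPS, Kpna4 rose, and Nup62 was not called. They are printed 5' to 3' on the gene's strand, at chr10:117792656-117792955 (minus strand, Nup107), chr6:91116777-91117076 (minus, Nup210), chr15:8109063-8109362 (plus, Nup155), chr11:106999476-106999775 (minus, Kpna2), chr3:69127043-69127342 (minus, Kpna4) and chr7:44815838-44816137 (plus, Nup62). Capitals mark matches, on either strand, to the NRF1 site (GCGCA, any base, GCGC) in Nup107 and Nup62, to TTTCCCGC (an E2F site) in Nup210, to CCAAT in Nup155, Kpna2, Kpna4 and Nup62, and to TTTGAA (the cell cycle gene homology region) in Kpna2.
Nup107: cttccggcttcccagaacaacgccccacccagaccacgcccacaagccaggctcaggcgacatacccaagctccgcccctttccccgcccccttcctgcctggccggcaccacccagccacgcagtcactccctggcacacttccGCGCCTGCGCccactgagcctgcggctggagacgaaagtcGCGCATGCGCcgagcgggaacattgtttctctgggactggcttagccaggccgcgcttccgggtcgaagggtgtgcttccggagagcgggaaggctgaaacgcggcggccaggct
Nup210: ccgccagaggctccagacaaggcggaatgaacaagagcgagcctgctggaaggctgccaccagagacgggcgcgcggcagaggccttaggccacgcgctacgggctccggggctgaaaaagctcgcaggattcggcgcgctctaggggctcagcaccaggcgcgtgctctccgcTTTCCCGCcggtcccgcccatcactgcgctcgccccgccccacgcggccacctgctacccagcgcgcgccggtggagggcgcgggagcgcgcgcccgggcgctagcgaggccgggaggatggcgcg
Nup155: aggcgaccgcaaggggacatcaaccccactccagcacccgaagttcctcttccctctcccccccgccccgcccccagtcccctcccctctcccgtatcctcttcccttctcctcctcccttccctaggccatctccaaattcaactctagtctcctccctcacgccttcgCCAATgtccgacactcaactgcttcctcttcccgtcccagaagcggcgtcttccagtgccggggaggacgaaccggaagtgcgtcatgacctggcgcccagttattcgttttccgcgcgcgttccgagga
Kpna2: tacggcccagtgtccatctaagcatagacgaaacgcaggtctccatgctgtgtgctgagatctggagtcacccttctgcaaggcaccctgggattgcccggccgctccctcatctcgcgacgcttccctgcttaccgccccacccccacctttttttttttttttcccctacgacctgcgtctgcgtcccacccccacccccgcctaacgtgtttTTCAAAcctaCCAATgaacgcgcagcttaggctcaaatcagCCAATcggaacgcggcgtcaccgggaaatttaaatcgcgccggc
Kpna4: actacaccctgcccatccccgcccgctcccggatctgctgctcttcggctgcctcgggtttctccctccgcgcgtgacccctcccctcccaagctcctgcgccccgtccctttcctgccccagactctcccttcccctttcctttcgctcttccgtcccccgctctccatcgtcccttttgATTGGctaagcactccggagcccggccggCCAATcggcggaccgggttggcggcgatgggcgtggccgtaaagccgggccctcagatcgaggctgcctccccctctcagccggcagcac
Nup62: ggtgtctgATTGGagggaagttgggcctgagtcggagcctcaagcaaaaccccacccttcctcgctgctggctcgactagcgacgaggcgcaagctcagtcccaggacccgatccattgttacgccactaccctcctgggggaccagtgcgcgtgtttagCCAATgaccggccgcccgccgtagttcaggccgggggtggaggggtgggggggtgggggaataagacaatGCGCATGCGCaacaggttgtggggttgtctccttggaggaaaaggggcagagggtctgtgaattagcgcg
Kpna2 carries CCAAT 25 bases before the start and again 7 bases after it, and TTTGAA 35 bases before the start, counted to the first base of each match. Over the 29 windows, CCAAT was found in 17 (58.6%), against 37.9% of 27025 promoter windows of the assembly. It was in 7 of the 13 windows whose gene had a probe set that fell after LPS and in 10 of the other 16. The NRF1 site was in 5 windows (17.2%, against 4.78%), those of Ipo9, Nup107, Nup50, Nup62 and Xpo5, of which 1 belongs to a gene that fell. TTTGAA was in 6 windows (20.7%, against 18.1%), 2 of them of genes that fell. The E2F form TTTCCCGC was in 1 window (1.11% of all windows), and the form TTTGGCGC (0.537%) and the NF-kappaB site (GGG, any 2 bases, TTTCC; 1.62%) were in none of the 29. These letters are a description of the windows and not evidence of binding. Both strands were searched, and matches of different motifs do not overlap in the windows shown.

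After LPS, 24 of the 71 probe sets were called, 23 lower and 1 higher. Over all probe sets tested 16.6% were called: 10.7% lower and 5.93% higher, so the members hold a larger share of lower calls (32.4%) and a smaller share of higher calls (1.41%) than the array as a whole. The probe sets that fell belong to 16 of the 36 genes, and the 1 that rose belongs to Kpna4. With the brightest probe set standing for each gene, 15 of 36 genes fell (10.4% of all 12393 genes) and 1 rose (6.67%). The median change of the 71 probe sets was -0.34, against -0.04 over all probe sets, and 57 of 71 changes were below 0 (55.7% of all). In 37 of 71 probe sets every LPS array lay below every untreated array (21.2% of all), and in 2 every LPS array lay above (12.2%). Centring each array on its median moves the median of all probe sets to 0.12 and that of the members to -0.19, with 20 calls. Quantile normalization gives 0.01 and -0.23, with 23 calls.

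**Figure D1:**
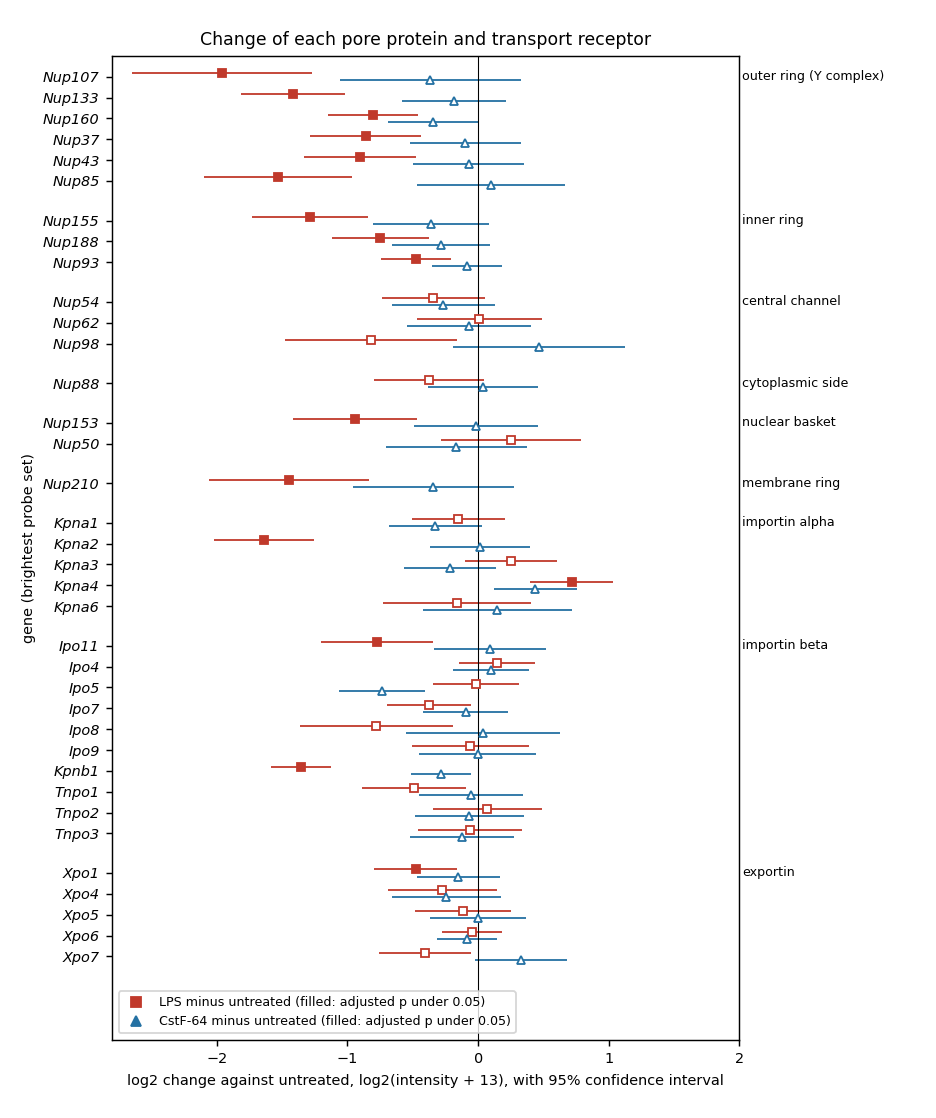
Change of each of the 36 genes against untreated cells (horizontal axis, log2 scale), by structural role, from the brightest probe set of each gene; squares show LPS, triangles CstF-64, lines 95% confidence intervals from limma, and filled symbols an adjusted p under 0.05. The genes placed in the outer and inner ring classes lie left of 0 after LPS with filled squares, Nup62 lies at 0.01, and no triangle is filled.

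The outer ring, or Y complex, was the class with the most calls. All 6 genes with a Nup name placed in this class (Nup37, Nup43, Nup85, Nup107, Nup133 and Nup160) fell after LPS. They did so through 9 of 11 probe sets (10.7% of all probe sets), and the median change was -0.90. Nup98, whose transcript also encodes a subunit of this complex, was placed with the central channel and did not pass (-0.82, adjusted p = 0.0923, limma). Outer ring subunits with other names did not fall: Seh1l changed by -0.07 (adjusted p = 0.793, limma) and Sec13 by -0.03 (0.934). Ahctf1, which brings the complex to chromatin, changed by 0.04 (0.924). Nup107, a subunit of the stem of the Y, measured 406.5, 377.1 and 244.2 in untreated arrays 1 to 3, and 42.7, 99.4 and 101.1 in LPS arrays 1 to 3 (probe set 1426751_s_at, whose suffix marks a probe set that can match more than 1 transcript). The groups are far apart: the dimmest untreated array is well above the brightest LPS array. The change was -1.96 (95% confidence interval -2.65 to -1.27, adjusted p = 0.00222, limma), a 3.89-fold fall on the log2(intensity + 13) scale.

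Nup85, which lies in a short arm of the Y, behaved alike on both of its probe sets. Probe set 1416073_a_at measured 338.7, 297.2 and 217.9 untreated and 68, 100 and 100.9 after LPS, and 1437520_a_at measured 160.6, 101.6 and 83.6 untreated and 23.7, 47 and 34.4 after LPS. The changes were -1.53 (-2.10 to -0.97, adjusted p = 0.00291, limma) and -1.40 (-1.97 to -0.83, adjusted p = 0.00483). In both probe sets LPS array 1 was the dimmest and untreated array 1 the brightest, and the groups did not overlap.

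Nup133, which joins Nup107 at the stem, has 4 probe sets on the array, of which 2 fell. Probe set 1423787_at read 160.4, 183.2 and 160.5 untreated against 39.3, 67.4 and 60.8 after LPS, a change of -1.42 (-1.82 to -1.02, adjusted p = 0.000604, limma). Probe set 1451111_at read 66.1, 80.4 and 77.5 against 14.1, 34.8 and 39.8, a change of -1.10 (adjusted p = 0.0137). This second call was lost without untreated array 2 (-1.05, adjusted p = 0.0555) and under quantile normalization (-0.96, adjusted p = 0.0510). Of the other probe sets, 1436816_at changed by -0.40 without passing (adjusted p = 0.118), and 1423788_at stayed below 10 in every array, under the background limit of 31.2. Nup37 and Nup43, subunits of the animal Y complex, and Nup160, at the tip of its other arm, changed by -0.81 to -0.90 in their 4 probe sets (adjusted p = 0.00635 to 0.0150, limma).

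The inner ring was lower as well. All 4 probe sets of Nup93, Nup155 and Nup188 fell after LPS (10.7% of all probe sets), with a median of -0.93. Nup155, which ties the ring to the pore membrane, measured 185.1, 257.4 and 195.8 untreated and 68.8, 93.3 and 75 after LPS on probe set 1418727_at, a change of -1.29 (-1.73 to -0.85, adjusted p = 0.00198, limma). Its other probe set, 1449200_at, fell by 1.11 (adjusted p = 0.00826), so both gave a like change. Nup188, a large scaffold protein, read 210.3, 182.7 and 159.3 untreated and 116.8, 107.2 and 88.9 after LPS (-0.75, adjusted p = 0.0135). Nup93, which links inner ring and central channel, read 408.5, 390.4 and 385.1 untreated and 319.2, 240.2 and 286.1 after LPS (-0.48, adjusted p = 0.0243). Neither pair of groups overlapped, but with fewer arrays both calls were lost at changes of similar size. Without untreated array 1 or LPS array 3, 2 of the 4 inner ring calls remained: Nup188 was at -0.65 in both fits (adjusted p = 0.0536 and 0.0527), and Nup93 at -0.45 and -0.49 (0.0728 and 0.0604). Nup93, at -0.37 to -0.49, was also lost without untreated array 2 (0.0729), untreated array 3 (0.0605) or LPS array 2 (0.0738), and, at -0.32, under median centring (0.105).

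The central channel gave no call after LPS by limma, over 3 genes and 8 probe sets with a median of -0.24. Of the 8, 2 had an unadjusted p under 0.05, against 34 of all 71 members. The matching share of all probe sets is not given here, so such counts after LPS describe the members only. Nup62, the repeat-bearing protein at the centre of the channel, has 4 probe sets, of which 1448150_at is under the background limit in every array. The other 3 changed by 0.02, 0.01 and -0.15, with 95% intervals that together span -0.55 to 0.49. Probe set 1438917_x_at measured 457.6, 393.5 and 391.9 untreated and 275.5, 409 and 449.9 after LPS, so LPS array 1 lies below the untreated arrays and the other two among them. Falls as large as those measured for Nup107, Nup85 or Nup155 lie outside the intervals of these 3 probe sets. Nup54, its partner in the channel, changed by -0.37 and -0.34 in 2 probe sets without passing (adjusted p = 0.120 and 0.240, limma), and its remaining one, 1432539_a_at, was at or below background in every untreated and LPS array. Nup98, whose transcript also encodes a scaffold protein cut from the same precursor, was at or below background in all 3 LPS arrays (5.4, 26.9 and 13.9) and read 42.3, 41.8 and 22.7 untreated (-0.82, adjusted p = 0.0923). With dim probe sets left out, or without LPS array 2, the central channel had 1 call. The difference between ring and channel nucleoporins was not tested, since members of a class are not replicates.

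Around the channel, results were mixed. Nup153, a basket protein that also contacts the lamina, read 380, 500.9 and 281.3 untreated and 147.9, 234.3 and 197.9 after LPS (-0.94, -1.41 to -0.47, adjusted p = 0.0136, limma). The groups did not overlap, and the call was lost without untreated array 2, its brightest array (-0.74, adjusted p = 0.0510). Nup50, a basket protein that helps to take importin alpha complexes apart, was not called in any of its 3 probe sets (-0.45, -0.29 and 0.25; adjusted p = 0.211 to 0.564). Its brightest probe set, 1450722_at, was high in LPS array 1 alone, at 450.3 against 225.9 and 244.8 in the other LPS arrays. Nup88, on the cytoplasmic side, read 558.4, 461 and 370.3 untreated and 348.9, 354.8 and 343.7 after LPS, and did not pass (-0.38, adjusted p = 0.229). Nup210, a membrane-spanning protein of the pore, read 252, 197.3 and 142.9 untreated and 64.5, 69.4 and 53.8 after LPS (-1.45, -2.06 to -0.84, adjusted p = 0.00586). In all, 15 of 29 nucleoporin probe sets fell and 0 rose, and 8 fell and 1 rose among 42 receptor probe sets. Of all probe sets 10.7% fell and 5.93% rose. The difference between nucleoporins and receptors was not tested, since probe sets of a class are not replicates.

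**Figure D2:**
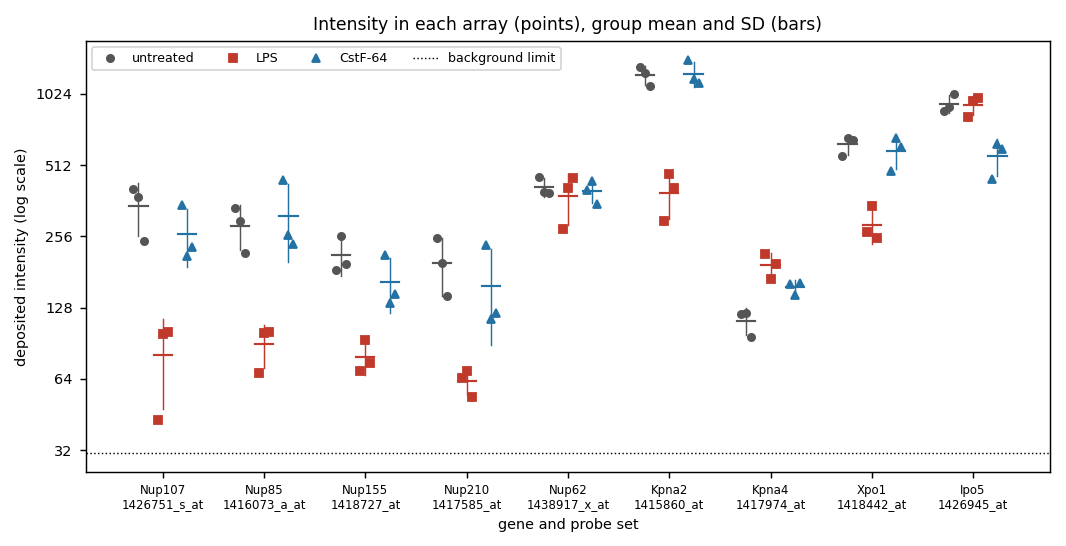
Deposited intensity (vertical log axis) of 9 probe sets in each of the 9 arrays. Each gene is shown by its probe set with the smallest limma p in any comparison, so its other probe sets can differ less. Points are arrays, horizontal bars group means, vertical bars SD (n = 3), and the dotted line the background limit of 31.2. The LPS squares lie below both other groups for Nup107, Nup85, Nup155, Nup210, Kpna2 and Xpo1, and above untreated for Kpna4; for Nup62, LPS array 1 lies below the other groups and the other LPS arrays among them; for Ipo5 the CstF-64 triangles lie below both other groups.

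Among the importin alpha adapters, the 5 genes went different ways after LPS. Kpna2 fell the most: 1326.1, 1252.3 and 1107.7 untreated against 296, 468.7 and 410.2 after LPS, a change of -1.64 (-2.02 to -1.26, adjusted p = 0.000186, limma) or 3.11-fold. The brightest LPS array, 468.7, lay far below the dimmest untreated array. Kpna4, an adapter known to import NF-kappaB, was the only called rise among all members. It read 120.1, 121.8 and 96.2 untreated and 216.5, 169.3 and 195 after LPS on probe set 1417974_at (0.72, 0.40 to 1.03, adjusted p = 0.00725), a 1.64-fold rise without overlap. Its other probe set, 1417975_at, read 64.7, 47.7 and 45.6 untreated and 157.2, 74.9 and 58.3 after LPS, where LPS array 1 is far above the rest (0.65, adjusted p = 0.182).

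Kpna1, Kpna3 and Kpna6, the remaining adapters, have 10 probe sets, none called after LPS by limma and 1 with an unadjusted p under 0.05. Kpna6 probe set 1418590_at came nearest, with 58.7, 62.4 and 64.5 untreated and 90.9, 84 and 82 after LPS (0.40, adjusted p = 0.103), and it was above untreated in every LPS array. Kpna3 changed by -0.19, 0.25 and 0.02 on its probe sets. Under quantile normalization, median centring or without the intensity trend of the variance model, the importin alpha class had 2 higher calls in place of 1.

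In the importin beta family, falls were called for Kpnb1 and Ipo11. Over its 10 genes, 4 of 21 probe sets fell (10.7% of all) and 0 rose (5.93%), with a median of -0.24. Kpnb1 encodes importin beta itself, the partner of importin alpha. Probe set 1448526_at measured 527, 551.4 and 511.1 untreated and 189.8, 192.4 and 216.4 after LPS, with little spread in either group: -1.35 (-1.58 to -1.13, adjusted p = 2.38e-05, limma), a 2.56-fold fall. Ipo11, an importin of ubiquitin-conjugating enzymes, read 232.4, 241.9 and 164.2 untreated and 93.9, 136.5 and 125.1 after LPS (-0.78, adjusted p = 0.0216). At changes of -0.62 to -0.71, that call was lost without untreated array 1 (adjusted p = 0.0747), untreated array 2 (0.0890) or LPS array 1 (0.0568), and under quantile normalization (0.0610) or median centring (0.0710). The smaller fall of Kpnb1 probe set 1416925_at was lost without untreated array 2 too (-0.46, adjusted p = 0.0668) or under median centring (-0.37, adjusted p = 0.0934); either change left 2 calls in the class.

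The other 8 genes of the family were not called after LPS by limma, though 5 of their 16 probe sets had an unadjusted p under 0.05. Ipo7, an importer of ribosomal proteins, read 1455.4, 1527.5 and 1536.7 untreated and 967.3, 1373.1 and 1162.1 after LPS; its groups did not overlap, and the change of -0.38 did not pass (adjusted p = 0.110, limma). Ipo8, an importin linked to Argonaute proteins, changed by -0.78 on probe set 1426760_at (adjusted p = 0.0730) and by -0.23 on its other probe set. Ipo4 and Ipo9, which carry histones among other cargo, changed by -0.06 to 0.14. Tnpo1, the receptor of many RNA-binding proteins, changed by -0.49 on its brighter probe set (adjusted p = 0.0964). Tnpo2, its close relative, and Tnpo3, the importer of SR splicing proteins, had changes of -0.37 to 0.07 in 5 probe sets. Ipo5 is described with the CstF-64 arrays.

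Among exportins, 3 of 8 probe sets fell after LPS (10.7% of all probe sets), in 2 of 5 genes. Xpo1, the main exporter of proteins with leucine-rich export signals, read 558.3, 669.8 and 655.4 untreated and 267.6, 343 and 251.1 after LPS on probe set 1418442_at: -1.10 (-1.46 to -0.75, adjusted p = 0.00134, limma). On 1418443_at it read 1177.9, 1272.9 and 1209.8 untreated and 1025.3, 828.4 and 780.9 after LPS, a smaller fall of 0.48 (adjusted p = 0.0466). Xpo7, a receptor with broad cargo, fell by 0.50 on probe set 1415682_at (181.3, 155.9 and 173.9 untreated, 108.9, 112.9 and 128.6 after LPS, adjusted p = 0.0264) and on 1439411_a_at changed by -0.41 (adjusted p = 0.113). Both smaller calls were lost in several fits, at changes of similar size in those with fewer arrays: the class kept 1 call under median centring, with 2 groups per fit, and without untreated array 1, untreated array 3 or LPS array 2. In these last fits 1418443_at changed by -0.50, -0.48 and -0.44 (adjusted p = 0.0872, 0.104 and 0.121) and 1415682_at by -0.46, -0.48 and -0.48 (0.0856, 0.0835 and 0.0687). Xpo1 1418443_at was lost without untreated array 2 (0.137) or LPS array 3 (0.150) as well. Xpo4, Xpo5, the exporter of microRNA precursors, and Xpo6, the exporter of actin, changed by -0.27, -0.11 and -0.05. For Xpo6 the interval was -0.28 to 0.18, so a fall of the size of Xpo1 probe set 1418442_at lies outside it.

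In the CstF-64 arrays, no member was called against untreated cells by limma. Over all probe sets 56, or 0.248%, were called. At an unadjusted p under 0.05 there were 5 of 71 members (6.45% of all probe sets), and the lowest adjusted p among members was 0.133. The median change was -0.07, against 0.00 over all probe sets, with 51 of 71 changes below 0 (49.3% of all), a range of -0.74 to 0.46 and confidence bounds between -1.07 and 1.12. The 23 probe sets that fell after LPS had changes between -0.37 and 0.11 here. The groups did not overlap in 14 probe sets, lower in 11 (6.18% of all) and higher in 3 (6.67%). Kpna2 read 1419.4, 1178.6 and 1133.2 in the CstF-64 arrays (0.01, -0.37 to 0.40), and Nup85 probe set 1416073_a_at 443.5, 258.3 and 237.5 (0.10, -0.47 to 0.67), both overlapping the untreated arrays. For Nup107, with 346.3, 212 and 230.3, the interval of -1.06 to 0.32 is wide and allows a moderate fall.

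Ipo5, an importer of ribosomal proteins and histones, gave the lowest p. Its probe set 1426945_at read 869.9, 899.1 and 1025 untreated, 821.1, 958.5 and 982.2 after LPS, and 446.4, 630.2 and 600 in the CstF-64 arrays. The CstF-64 arrays lay below all 6 others. Against untreated the difference was -0.74 (-1.07 to -0.40) and did not pass (adjusted p = 0.133, limma). Without LPS array 1 and CstF-64 array 1 it did pass, at a smaller difference of -0.59 (adjusted p = 0.0461), and over the other alternatives the adjusted p lay between 0.0843 and 0.445. The other probe sets of Ipo5 were also lower in every CstF-64 array than in every untreated array: 193.6, 229.9 and 226 against 315.6, 314.7 and 273.5 on 1426946_at (-0.45, adjusted p = 0.593), and 1431706_at, which is under the background limit in every array (-0.33, adjusted p = 0.699). Kpna4 probe set 1417974_at, the one that rose after LPS, read 161.8, 144.6 and 163.3, above every untreated array (0.44, 0.12 to 0.75) without passing (adjusted p = 0.525).

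The direct comparison of CstF-64 with LPS arrays, which leaves the untreated arrays out of the difference, gave 22 called members, 20 higher and 2 lower in CstF-64. Of all probe sets 15.2% were called, 9.43% higher and 5.79% lower. The members' median was 0.27, against 0.05 over all probe sets, and quantile normalization gives 0.08 against 0.00. With the brightest probe set of each gene, 13 of 36 genes were higher (9.51% of all genes) and 1 lower (6.38%). By class, the higher calls were 8 of 11 in the outer ring, 2 of 4 in the inner ring, 1 of 8 in the central channel, 1 of 4 in the basket, Nup210, and 7 of 42 receptor probe sets. Kpna2 (1.65, adjusted p = 0.0002, limma), Nup85 1416073_a_at (1.63, adjusted p = 0.00216) and Nup107 (1.59, adjusted p = 0.00714) led. Without CstF-64 array 2 the outer ring had 5 higher calls in place of 8, and without CstF-64 array 3 the inner ring had 1.

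Some calls of this comparison were lost with fewer arrays, most at changes of similar size. Nup210 read 236.2, 114.4 and 121.3 in CstF-64 (1.11, adjusted p = 0.0235, limma). Its call was lost without LPS array 3 (1.02, adjusted p = 0.0784), under quantile normalization (0.95, 0.0553), and without the pair LPS array 1 and CstF-64 array 1 (0.82, 0.0562). Nup153, at 388.4, 357.4 and 373.2 (0.92, adjusted p = 0.0162), was lost without CstF-64 array 3 (0.92, adjusted p = 0.0541) and without that pair (0.73, 0.0742). Nup98 read 45.5, 66.6 and 48, at least 1.69-fold above LPS, where all arrays were at or below 31.2 (fitted change 1.28, adjusted p = 0.0167), and it was lost without LPS array 3 (1.28, adjusted p = 0.0513) or CstF-64 array 2 (1.14, 0.0659). Xpo7 was higher on both probe sets (0.61 and 0.74, adjusted p = 0.0112 and 0.0115). Its 1415682_at call was lost without CstF-64 array 2 (0.54, adjusted p = 0.0562), and median centring ended both (0.45 and 0.58, adjusted p = 0.0562 and 0.0544).

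Lower in CstF-64 than after LPS were Ipo5 1426945_at (-0.72, -1.05 to -0.39, adjusted p = 0.00986, limma) and Kpna6 1418590_at. The Ipo5 call was kept in all 15 alternatives followed for single calls, at adjusted p of 0.00474 to 0.0424. Without LPS array 1 and CstF-64 array 1, the importin beta family had 2 lower calls. Without untreated array 2, a fit outside those 15, the members had 1 lower call in place of 2. Kpna6 read 58.4, 45.3 and 57.5 in CstF-64 against 90.9, 84 and 82 after LPS (-0.57, adjusted p = 0.0292), with no overlap. At changes of -0.47 to -0.61 the Kpna6 call was lost without LPS array 2 (adjusted p = 0.0631), LPS array 3 (0.0642), CstF-64 array 2 (0.118) or CstF-64 array 3 (0.0677). It was lost with 2 groups per fit as well (0.0759).

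Where a gene has several probe sets, they did not always change alike. Of 20 member genes with 2 or more probe sets, limma's diffSplice F test called 3 unequal after LPS: Nup133 (adjusted p = 0.00581), Xpo1 (0.00581) and Kpnb1 (0.00937), or 15.0% against 5.85% of all 4956 such genes. Kpnb1 spans -1.35 on 1448526_at, -0.68 on 1451967_x_at, -0.53 on 1416925_at and -0.31 on 1434357_a_at. The last read 90, 139.1 and 134.2 untreated and 127.1, 91.1 and 70.3 after LPS, with overlapping groups, and all 4 are above background. For Xpo1, probe set 1448070_at read between 1.5 and 2.9 in every array, where no change can be seen. Leaving dim probe sets out kept Kpnb1 (adjusted p = 0.0127) and Nup133 (0.0472) and ended the Xpo1 call (0.137), and a pseudocount of 1 ended those of Nup133 (0.287) and Xpo1 (0.149). Kpnb1 was lost without untreated array 1 (0.0635), Nup133 without untreated array 2 (0.0718), and Xpo1 without untreated array 2 (0.0586) or 3 (0.0513). The positions of the probes on the transcripts were not used here.

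**Figure D3:**
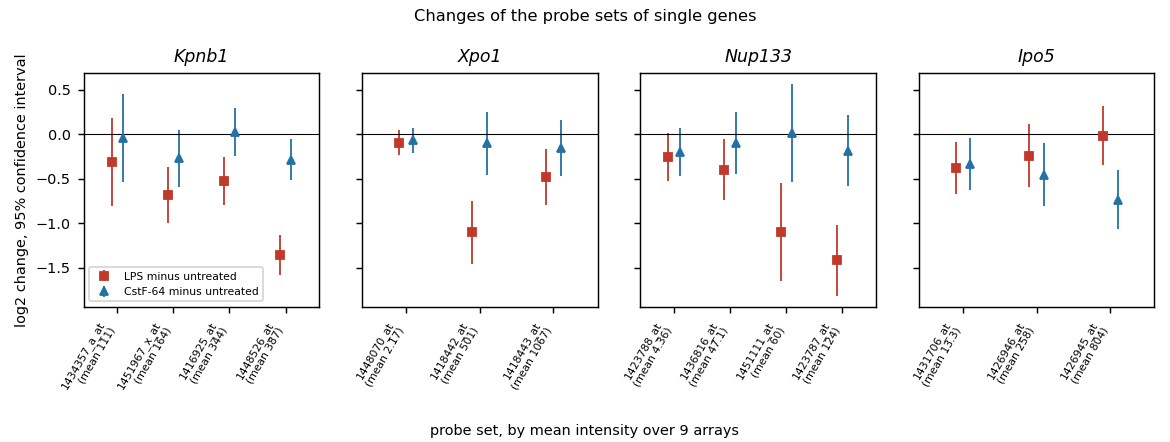
Log2 change against untreated (vertical axis, with 95% confidence intervals) of every probe set of Kpnb1, Xpo1, Nup133 and Ipo5, ordered by mean intensity over the 9 arrays; squares are LPS and triangles CstF-64. The LPS squares of Kpnb1 spread from -0.31 to -1.35, the dimmest probe sets of Xpo1 and Nup133 lie close to 0, and all 3 Ipo5 triangles lie below 0.

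In CstF-64 against LPS, Nup133 (adjusted p = 0.00363) and Xpo1 (0.00563) were again unequal by diffSplice (10.0% of the 20 genes, 5.83% of all). With dim probe sets left out neither passed (0.0534 and 0.104). Against untreated cells 0 of the 20 were called in CstF-64 by diffSplice (0.0% of the 4956 genes). At an unadjusted p under 0.05 there were 0 of 20, and 143 of all 4956 genes. Beyond the called genes, the probe sets of Nup155 and of Nup85 gave like changes after LPS and those of Kpna1 small ones (-0.35 to -0.15), while Tnpo1 gave -0.49 and 0.24 (diffSplice adjusted p = 0.212), with the second probe set dim. In CstF-64 against LPS, 6 of the 20 genes had an unadjusted p under 0.05 by diffSplice, and 876 of all 4956 genes did. Among the 6 were Ipo5 (adjusted p = 0.0598) and Kpna6 (0.106, with changes of -0.57 and 0.31).

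The remaining genes of nuclear transport were described from lists that hold none of the members. In all lists, those of markers included, the brightest probe set stands for each gene. Counted over every probe set, 9 of 17 fell after LPS in the Ran cycle list and 10 of 24 among other pore proteins. In the mRNA export list 6 of 50 fell, and in the lamina list 10 of 26, against 10.7% of all probe sets. Of 10 genes of the Ran cycle and its cofactors, 6 fell after LPS (10.4% of all genes did) and 0 rose, with a median of -0.80. Ranbp1, which helps Ran to hydrolyse GTP, went from 1395 ± 77.8 to 632 ± 114 (SD, n = 3; -1.14, adjusted p = 0.00169, limma). Rcc2 (-1.12), a relative of the Ran exchange factor, Xpot (-0.99), the exporter of tRNA, and Cse1l (-0.84), which returns importin alpha to the cytoplasm, fell as well. Of 11 pore proteins with other names, 5 fell and 0 rose, with a median of -0.63. Among them were Ranbp2, of the cytoplasmic filaments (301.6 ± 26.6 to 115.3 ± 18.3; -1.30, adjusted p = 0.000222), the membrane protein Ndc1 (-1.62), the mRNA export factor Gle1 (-1.58) and Aaas (-1.06). Not called were Seh1l, Sec13 and Ahctf1, given with the outer ring, and Pom121, Nupl1 and Nupl2, with changes of -1.39, -0.46 and -0.46 (adjusted p = 0.126, 0.198 and 0.108). Rae1, an mRNA export factor of the pore, fell by 0.63 (adjusted p = 0.0303). Several of these genes were named after their values were seen.

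By the brightest probe set, 2 of 20 mRNA export genes fell (Lrpprc, -0.98, and Ddx39a, -0.70, by limma) and 0 rose, with a median of -0.27. The share that fell is close to the 10.4% of all genes. The general mRNA export receptor Nxf1 changed by -0.15 (adjusted p = 0.478). Of 14 genes of the nuclear lamina and inner membrane, 6 fell, with a median of -0.20: Lbr (-1.96), Lmnb2 (-1.84), Tmpo (-1.49), Lmnb1 (-1.48), Sun2 (-1.31) and Banf1 (-0.63), with the LPS mean of Lmnb2 (11.8) under the background limit. Lmna, the A-type lamin, did not pass (-0.24, adjusted p = 0.490). In CstF-64 against untreated, 0 genes of these 4 lists were called by limma, with 1, 0, 1 and 3 at an unadjusted p under 0.05 in the Ran, other pore, mRNA export and lamina lists. In CstF-64 against LPS, 6, 4, 3 and 6 genes of these lists, in the same order, were higher, and 1 lamina gene was lower. The Ran count was 3 without LPS array 1 or CstF-64 array 1 and 2 without LPS array 3. The mRNA export count was 1 under median centring and 5 without LPS array 1 and CstF-64 array 1.

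Cell division markers moved with these genes. Of 41 such markers 38 fell after LPS and 0 rose, with a median of -2.34 and summed intensities of 23530 to 25400 untreated, 5424 to 6392 after LPS and 20920 to 25790 in CstF-64. In CstF-64 0 of 41 were called against untreated by limma (4 at an unadjusted p under 0.05), and 37 were higher than after LPS. Their part in the result was not tested. Macrophage markers also changed after LPS, with 4 of 8 genes higher and 1 lower and sums of 13330 to 18070 untreated and 18840 to 20800 after LPS. No gene of the lymphocyte, granulocyte, fibroblast and endothelial or epithelial lists was called in any comparison by limma; of these 21 genes, 1 had an unadjusted p under 0.05 after LPS, 2 in CstF-64 against untreated and 4 in CstF-64 against LPS. Quantile normalization or median centring gave 1 granulocyte gene higher after LPS.

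Within groups the outer ring varied by array. As a mean deviation from each probe set's average over the 9 arrays, it stood at 0.547, 0.404 and 0.225 in untreated arrays 1 to 3, at -0.923, -0.460 and -0.570 in LPS arrays 1 to 3, and at 0.478, 0.162 and 0.137 in CstF-64 arrays 1 to 3. LPS array 1 was the lowest LPS array for 9 of 11 outer ring probe sets and for 7328 of all 22626. Over all 22626 it was the highest LPS array for 49.8%. CstF-64 array 1 was the highest of its group for 9 of 11 (37.5% of all), and untreated array 1 for 7 of 11 (36.5% of all). The cell division markers stood at 0.871, 0.831 and 0.711 untreated, -1.55, -1.27 and -1.57 after LPS, and 0.850, 0.573 and 0.557 in CstF-64. For the outer ring, LPS array 1 is thus the lowest of its group, and CstF-64 array 1 and untreated array 1 the highest of theirs. Untreated array 3 was the lowest of its group for 7 of 11 probe sets, as often as untreated array 1 was the highest. Without LPS array 1 and CstF-64 array 1, 25 members were called after LPS, 1 in CstF-64 against untreated and 19 in CstF-64 against LPS.

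**Figure D4:**
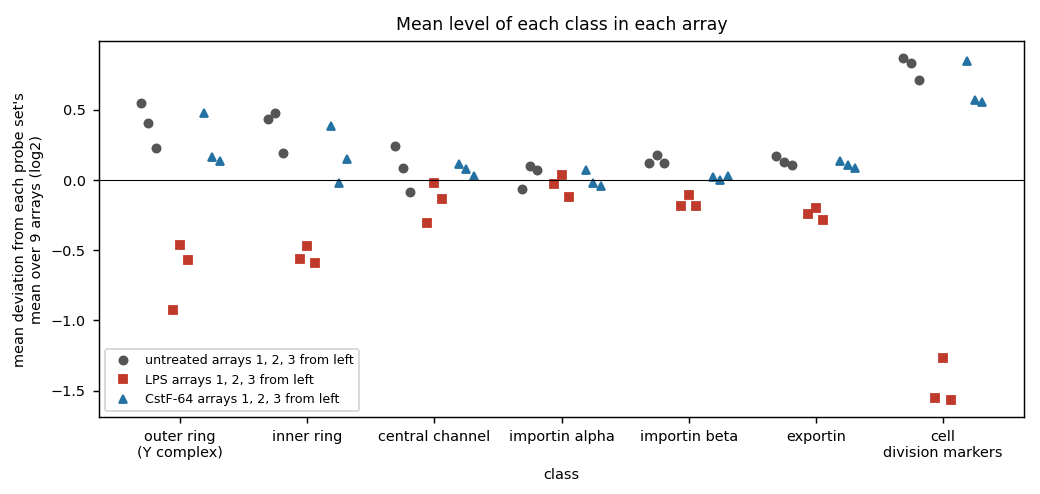
Mean log2 deviation of each class from its probe sets' averages over the 9 arrays (vertical axis), for each array; circles are untreated, squares LPS and triangles CstF-64, with arrays 1 to 3 from left to right. In the outer ring the LPS arrays lie between -0.923 and -0.460 and all other arrays above 0; the importin alpha class shows no such gap, and the cell division markers show the widest.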

How the data were processed

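Each of 9 arrays gave 1 intensity per probe set. The intensities were deposited by the authors on a linear scale, already brought to a common level; the sources used here do not give the software, background correction or normalization. They were used unchanged, the trimmed means differing by less than a factor of 1.1.

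Of 22690 probe sets, 64 controls were left out, and log2(intensity + 13) was taken, 13 being 0.25 of the median of all values (50.2). One linear model with a mean per group was fitted with limma 3.58.1 (lmFit, then eBayes with a trend on intensity; R 4.3.3) and adjusted as stated above; diffSplice tested probe sets of 1 gene. The scripts were tested on simulated data. Probe sets were named from GEO's platform annotation; updated symbols gave the same 71. Values in each array are given for called members, at most the 4 largest changes per role and direction, and for members with unequal probe sets. Outside this rule they are also given for some uncalled probe sets, such as those of Nup62, Nup88 and Ipo7. The remaining members are given by changes and ranges. Members, lists and motifs were chosen with earlier results of these data known. Precision is limited by having 3 arrays per group.

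Alternatives were quantile normalization, median centring, pseudocounts of 1 and 50, no dim probe sets, no trend, 2 groups per fit, the replicate number as a block, at least 2-fold, the brightest probe set per gene, and each array left out. The class counts, the alternatives for unequal probe sets and the fit without LPS array 1 and CstF-64 array 1 were added after seeing the data.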

Additional observations from a re-analysis of the deposited data

How the results depend on the processing

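Over the alternatives, 17 to 26 members were called after LPS, apart from 11 with a 2-fold minimum and 16 of 36 genes by the brightest probe set; leaving out single arrays gave 17 to 25. In CstF-64 against untreated the count was 0 under each alternative except without LPS array 1 and CstF-64 array 1, where it was 1 (Ipo5). In CstF-64 against LPS it was 18 to 24, 11 with a 2-fold minimum, 14 by the brightest probe set, and 16 to 22 when single arrays were left out. Genes with unequal probe sets after LPS numbered 3, 2 with dim probe sets left out, 1 with a pseudocount of 1, and 1 to 4 when single arrays were left out. With the replicate block, 25 members were called after LPS, 0 in CstF-64 against untreated and 24 in CstF-64 against LPS. Deviations of same-numbered arrays correlated at -0.06 to 0.16 across probe sets, and those of differently numbered arrays at -0.24 to 0.20. Not every array correlated best with its own number. With 3 arrays per group, such weak correlations cannot show whether same-numbered arrays were handled together. Of 20 called members named with values after LPS, 12 kept the call in all 15 alternatives followed for single calls. Of 19 in CstF-64 against LPS, 9 did, and in both comparisons 0 changed sign.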
